A study of Homo sapiens with 18 samples.

Results

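RELA occupancy was described here in A549 cells, an established line from a human lung adenocarcinoma, after 1 hour of IL-1β, from every line of the deposited site table that carries RELA as the factor and IL-1β as the treatment. These lines gave 11571 sites of 400 bp, of 46284 lines in all for both factors and treatments. Cells received IL-1β at 1 ng/mL, or were left without stimulation (NS) as the control, and RELA was precipitated in 2 libraries of each condition, from 2 independent experiments. Beside them stand RELA after IL-1β with 300 nM budesonide, a glucocorticoid, and the glucocorticoid receptor (GR) after budesonide alone or with IL-1β, also for 1 hour and in 2 libraries each. All 18 samples were of this 1 line.

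The table holds 1 binding intensity for each site, factor and treatment, which is the authors' value over the libraries. It gives no intensity for NS cells and none for single libraries, so intensities with IL-1β could not be set against NS. The authors' own fold over NS and its FDR are in the table but were not used here, so no test is given. Depth and the spread between experiments are unknown. What follows describes where RELA lay with IL-1β and how strongly. The intensity is a log2 normalized read count in which 0 is the lowest value the scale allows, and intervals are 95% intervals for counting over sites only. The cell line itself could not be checked against marker expression, as the table holds occupancy and no RNA.

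RELA (p65) is the NF-κB subunit with a strong activation domain. In resting cells, inhibitors of the IκB family hold NF-κB dimers in the cytoplasm. IL-1β binds its receptor and, through IRAK kinases and the IκB kinase complex, has IκBα degraded, so that RELA dimers enter the nucleus and bind κB elements beside genes for chemokines, cytokines, adhesion molecules, survival factors and the inhibitors of the pathway itself.

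RELA intensity with IL-1β had a median of 4.26 (4.21 to 4.31) over the 11571 sites. The lowest 5% of sites lay at or under 1.01, the strongest 10% began at 6.10, the strongest 1% lay above 7.73, and the highest value was 10.82. At 236 sites (2.04%) RELA was listed at 0. These weak sites belong to the list because it pools sites of RELA and GR: only 64 sites (0.553%) had all 4 deposited intensities under 4. Any inverse relation between RELA and GR intensities across this list is therefore set in part by how the list was made.

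The very highest values did not follow RELA alone. At 925 sites (7.99%) the 4 intensities, for RELA with IL-1β, RELA with both agents, GR with budesonide and GR with both, lay within 1 of each other, and such sites are called even below. Even sites were 173 of the 1157 strongest 10% by RELA intensity (15.0%), 41 of the highest 100 and 13 of the highest 20. The strongest site of all, 232 kb from the SHCBP1 start on chromosome 16, had 10.82 for RELA with IL-1β, 10.47 for RELA with both agents, 11.01 for GR with budesonide and 10.82 for GR with both. It holds a short repeat of the kind found beside centromeres, of which 100 bases are shown (GRCh38, plus strand) because they head the RELA list without any κB element; copies of GGAAT are in capitals.
SHCBP1 repeat, chr16:46389680-46389779: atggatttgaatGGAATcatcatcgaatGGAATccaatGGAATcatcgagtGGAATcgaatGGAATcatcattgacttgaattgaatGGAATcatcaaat

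At least 10 copies of GGAAT or its complement were found at 163 sites, 55 of them on the Y chromosome. None of the 163 held a κB element, and 100 were even. Their RELA intensities ranged from 1.21 to 10.82 with a median of 5.27, beside a median of 5.61 for GR with budesonide. What sets the signal of such sites was not tested, and the main shares that rest on the strongest sites are also given without even sites.

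**Figure D1:**
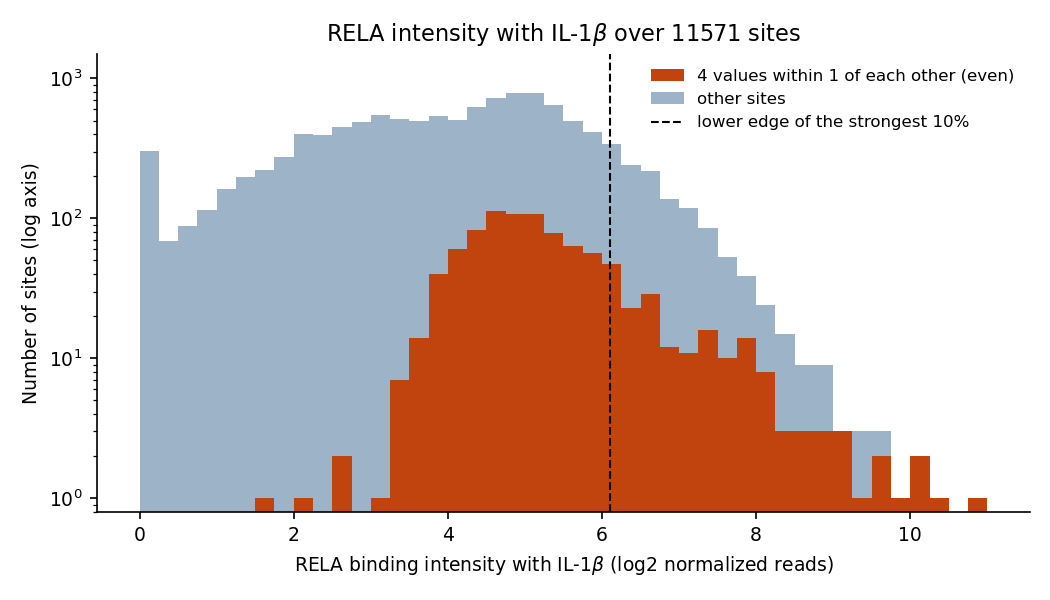
Number of sites (log axis) against RELA binding intensity with IL-1β in log2 normalized reads, in bins of 0.25, with even sites below and other sites stacked above them; the dashed line marks 6.10, where the strongest 10% begins. The 6 highest sites and 13 of the 20 highest are even.

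Among the highest 20 sites, 7 were not even, and 5 of these held a full match to the κB consensus, the 10-base element of NF-κB dimers with 9 defined positions, within the 400 bp. Among the highest 60, 36 were not even and 17 of these held a full match. The strongest, at 9.63, lay in an intron of SLC12A7, which encodes a potassium-chloride cotransporter, with 9.21 for RELA with both agents and 3.68 for GR with budesonide. It held no full match, but 10 separate matches to at least 8 of the 9 positions. A site in an exon of FBXO21, an F-box gene, followed at 9.31, and the NFKB2 start, for the precursor of a further NF-κB subunit, at 9.28.

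The next site that was not even, between SERPINA6 and SERPINA2 and 20.5 kb from the SERPINA2 start, had 8.98 and held 7 full κB matches. RELA was at 9.97 there with both agents, and GR at 2.76 with budesonide. The last 3 of the 7 sites among the highest 20 that were not even lay upstream of genes. EIF5, a translation initiation factor, had 8.97 at 72.8 kb, and EFNA1, an ephrin ligand, 8.93 at 3.1 kb. UBE2E1, a ubiquitin-conjugating enzyme, had 8.86 at 57.1 kb. A stretch of both sites with repeated elements is shown (GRCh38, plus strand), as each held 10 matches to at least 8 positions, where the strongest 10% of sites had a median of 2. Capitals mark full κB matches for SERPINA6 and matches to at least 8 of 9 positions for SLC12A7, on either strand.
SERPINA6, chr14:94346053-94346252: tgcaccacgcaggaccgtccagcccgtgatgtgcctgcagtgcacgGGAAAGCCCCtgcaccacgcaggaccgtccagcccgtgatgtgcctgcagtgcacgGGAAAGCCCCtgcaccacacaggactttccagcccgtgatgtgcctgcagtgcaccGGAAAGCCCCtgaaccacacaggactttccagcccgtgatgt
SLC12A7, chr5:1082141-1082340: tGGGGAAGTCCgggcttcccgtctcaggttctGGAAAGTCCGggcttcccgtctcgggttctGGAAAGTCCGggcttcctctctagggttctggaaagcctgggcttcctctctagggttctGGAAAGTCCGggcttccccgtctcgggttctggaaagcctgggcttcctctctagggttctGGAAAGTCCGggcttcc

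At the gene starts printed below, from the NF-κB system and chemokines, the element lay no more than 28 bp from the site centre, except at NFKBIA (-58 bp). Not all strong start sites of such genes were alike. Those at the TNIP1 (7.33) and CXCL2 (6.64) starts held no full match in the 400 bp. Of the BCL3 start sites, the one at 7.82 had its element at 22 bp and the one at 7.72 at 111 bp. The sequences below are printed as the element reads, with its 10 bases in capitals and 15 bases on either side, from GRCh38; they show how far the element varies among strong RELA sites at gene starts. The CXCL8 element matches 8 of the 9 positions and the others all 9.
NFKB2, chr10:102394485-102394524, plus strand: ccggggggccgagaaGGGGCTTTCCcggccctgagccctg
NFKB1, chr4:102501295-102501334, plus strand: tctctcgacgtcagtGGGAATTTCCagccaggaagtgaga
REL, chr2:60881512-60881551, plus strand: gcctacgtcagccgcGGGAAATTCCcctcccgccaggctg
RELB, chr19:45001318-45001357, plus strand: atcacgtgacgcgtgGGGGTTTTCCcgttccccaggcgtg
NFKBIA, chr14:35403948-35403987, plus strand: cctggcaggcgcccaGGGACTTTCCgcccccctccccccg
TNFAIP3, chr6:137867177-137867216, minus strand: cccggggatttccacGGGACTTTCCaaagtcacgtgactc
CXCL1, chr4:73869299-73869338, plus strand: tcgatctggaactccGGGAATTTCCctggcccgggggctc
CXCL8, chr4:73740462-73740501, plus strand: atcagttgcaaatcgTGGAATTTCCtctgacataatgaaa

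The share of sites with a κB element rose with RELA intensity over the whole list. A full match lay within 100 bp of the centre, on either strand, at 448 of the 1157 strongest 10% of sites (38.7%, 36.0 to 41.6), against 319 of 5786 in the weakest 50% (5.51%, 4.95 to 6.13). In the strongest 10%, sequence 2000 bp away held a match at 3.03% of sites. Over all sites the share was 18.7%, against 1.97% at the same distance. The list pools sites of both factors, so the weakest 50% includes sites of GR. This contrast and the decile shares below therefore depend in part on how the list was made.

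Even sites lowered the share among strong sites. The element was present at 2.89% of the even sites in the strongest 10% and at 45.0% of the others there. By decile of RELA intensity the share was 2.94% in the lowest, 4.93% in the third, 6.74% in the fourth, 9.77% in the fifth, 23.8% in the sixth, 29.5% in the seventh, 32.3% in the eighth, 35.5% in the ninth and 38.7% in the highest. The largest step between neighbours lay at the median of the list, from the fifth decile to the sixth, where the intensity passed 4.26 and the median GR intensity with budesonide was 5.08 in the fifth decile and 3.27 in the sixth.

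Other elements tracked RELA less closely. The AP-1 element (TGACTCA or TGAGTCA, bound by FOS and JUN proteins) was found at 16.8% of the strongest 10% (14.7 to 19.0) and at 12.7% of the weakest 50% (11.9 to 13.6), with 3.43% of all sites 2000 bp away. C/EBP elements (TTGCNNAA) stood at 21.4 and 18.1%, with 10.1% away, and FOX elements (TGTTTAC) at 7.43 and 9.47%, with 2.81% away. The core of the GR element (ACANNNTGT) ran the other way, at 7.69% of the strongest 10% and 42.7% of the weakest 50%. The median GR intensity with budesonide was 3.65 in the strongest 10% and 5.14 in the weakest 50%. As the list pools sites of both factors, the opposite run of the GR core depends in part on how the list was made. Matches on both strands were counted and an overlap with another element did not remove a match.

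**Figure D2:**
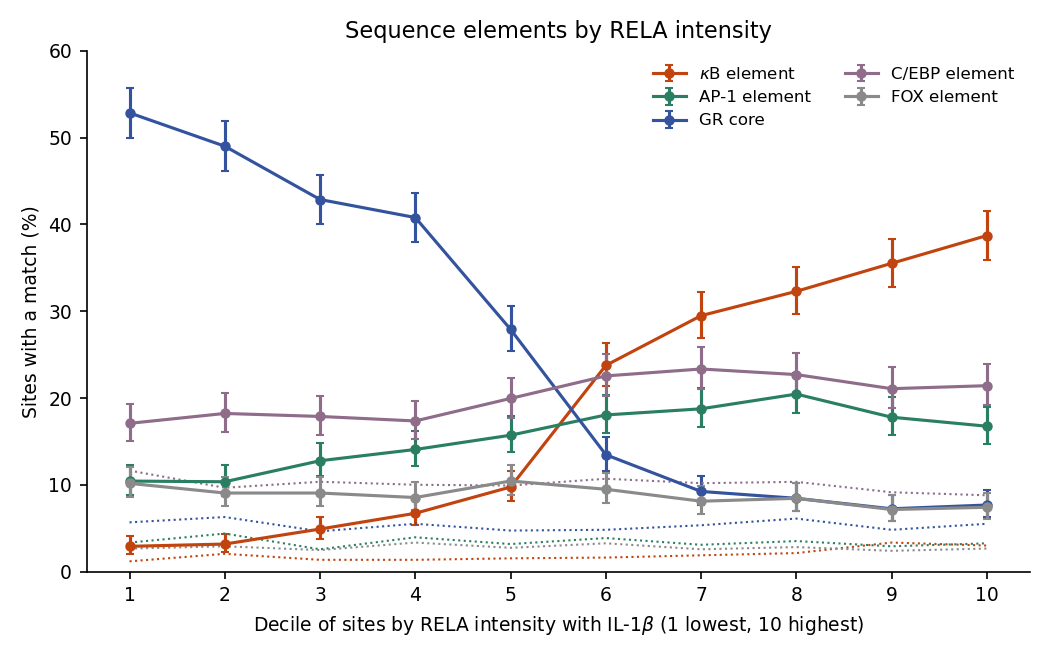
Share of sites with each sequence element within 100 bp of the centre (solid lines, with 95% Wilson intervals) by decile of RELA intensity with IL-1β, and the share in sequence 2000 bp away (dotted lines). The κB share runs from 2.94% in the lowest decile to 38.7% in the highest, and the GR core runs from 52.8 to 7.69%.

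Sites with at least 1 full match had higher RELA intensities than sites with none. Sites with no full match in 400 bp had a median RELA intensity of 3.81 (9133 sites), those with 1 match 5.15 (2075 sites), those with 2 matches 5.37 (319 sites) and those with 3 matches 5.77 (25 sites). The share of these sites in the strongest 10% was 7.26, 19.3, 23.8 and 36.0%. The median GR intensity with budesonide was 4.94 at sites with no match and 2.79 at those with 1. As the list pools sites of both factors, the lower RELA median without a match depends in part on how the list was made. The intervals of the medians for 1 match (5.10 to 5.19), 2 matches (5.19 to 5.53) and 3 matches (5.35 to 6.31) overlapped from each number to the next, and the 11 sites with 5 or more matches had a median of 5.78 (4.34 to 7.29).

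Tandem copies alone did not place a site high. Among those 11 sites, a site in an intron of RASA3 with 7 matches had 4.41, and one in an intron of PRKAR1B with 8 matches had 5.44. FSTL3, 1.6 kb upstream of its start, had 7 matches and 7.29 with IL-1β, beside 9.18 for RELA with both agents. FSTL3 encodes a secreted binder of activins.

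Partial elements were graded too. By the best match within 100 bp of the centre, the median RELA intensity was 3.21 at 6 or fewer of the 9 positions, 3.50 at 7, 4.60 at 8 and 5.20 at 9, and these 4 medians had intervals that did not overlap. Matches to at least 8 positions were found in the 400 bp at 84.2% of the strongest 10%, and at 48.6% of the weakest 50%. At least 3 such matches were found at 27.0 and 5.12%. The pooling of RELA and GR sites in the list bears on these values too.

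The common versions of the element had similar RELA intensities. Of 57 versions found, GGGAAATTCC was the most common (325 sites, median RELA intensity 5.21), before GGGAATTTCC (302 sites, 5.27), GGGGAATTCC (198 sites, 5.37) and GGGACTTTCC (157 sites, 5.35). The intervals of these 4 medians overlapped. A lower median was seen where, at sites with a single match that read on 1 strand only, the seventh and eighth bases were CT (4.78, 4.68 to 5.03, 144 sites) or CC (4.58, 3.36 to 5.06, 38 sites) in place of TT (5.19, 5.13 to 5.25, 993 sites). With TC there the median was 5.08 (192 sites), and its interval of 4.91 to 5.27 overlapped that of TT. Single elements with G as the fourth base had 5.17 (497 sites) and those with A 5.11 (870 sites), with overlapping intervals.

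The element lay at the centre of strong sites. Among the 495 sites of the strongest 10% with a full match in the 400 bp, it was a median of 19 bp from the centre, and 78.4% had it within 50 bp. In the weakest 50% the median was 50 bp, and 50.1% of 429 sites had it within 50 bp. As the list pools sites of both factors, the weakest 50% includes sites of GR.

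**Figure D3:**
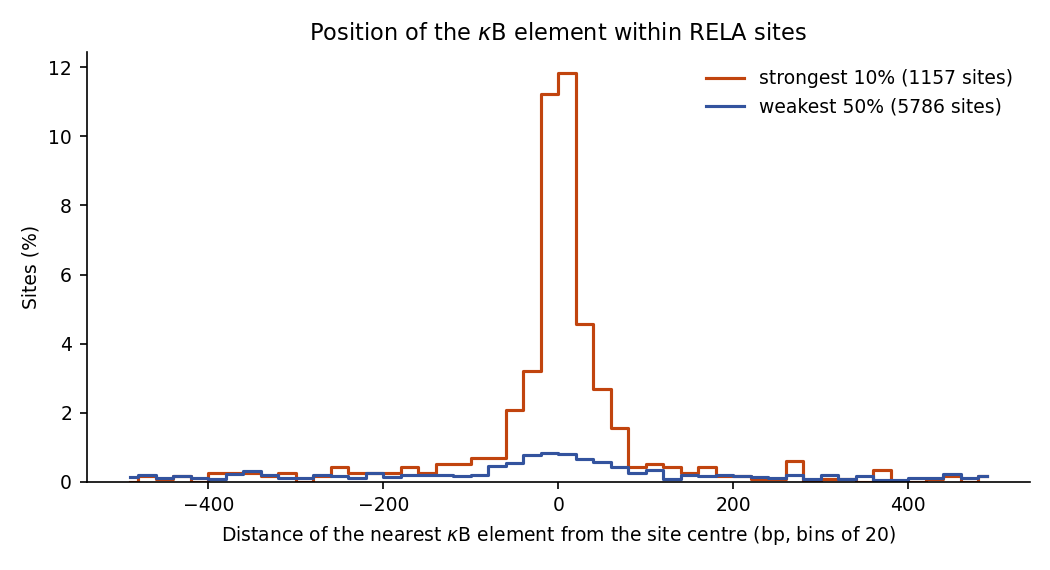
Share of sites (%) by the distance of the κB element nearest the site centre, in bins of 20 bp, for the strongest 10% and the weakest 50% of sites by RELA intensity with IL-1β. The strongest sites peak at 11.8% in a bin beside the centre, and the weakest 50% stay under 1% in every bin.

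Sites with κB and AP-1 elements together were close to sites with κB alone. Sites with both had a median of 5.27 (5.16 to 5.41, 301 sites) and sites with κB only 5.19 (5.14 to 5.24, 1867 sites). AP-1 without κB went with 4.41 (1496 sites), and neither with 3.75 (7907 sites). Sites with both κB and the GR core had 4.35 (3.92 to 4.61, 258 sites), below the 5.27 of κB without the GR core (5.21 to 5.32, 1910 sites). The median GR intensity with budesonide was 3.49 and 2.60 at these sites. A site with the GR core can be in the pooled list through GR with little RELA, so nothing is read from the lower RELA median. C/EBP beside κB had 5.22, against 5.20 without it.

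RELA intensity was higher at sites near gene starts than at the other sites of the list. The 988 sites within 1 kb of an annotated start had a median of 4.99 (4.89 to 5.14), against 4.19 (4.14 to 4.25) at the 10583 sites farther away. At the 415 sites within 1 kb of a protein-coding start the median was 5.37, and 30.1% of them (25.9 to 34.7) were in the strongest 10%. That share was 14.2% at 1 to 10 kb, 9.76% at 10 to 50 kb, 7.29% at 50 to 200 kb and 8.56% beyond 200 kb. The median GR intensity with budesonide was 4.61 within 1 kb of an annotated start, 4.65 farther away and 3.92 near protein-coding starts. The list pools sites of both factors, so these contrasts can depend in part on how the list was made.

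Strong sites at starts carried the κB element more often. It was present at 121 of 226 strong sites within 1 kb of a start (53.5%, 47.0 to 59.9) and at 327 of 931 strong sites farther away (35.1%, 32.1 to 38.2). The sequence differed as well, with a median G+C content of 59.1% at the strong sites near starts and 46.0% at those farther away. Its part in the difference was not tested. Of the strong sites, 173 were even, with the element at 2.89% and a median of 80.5 kb from a protein-coding start. At the other strong sites these values were 45.0% and 26.4 kb. The contrast by distance was not taken without even sites, so their part in it was not tested either. Most RELA sites were nonetheless distal: 931 of the strongest 1157 lay more than 1 kb from any start.

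The 10 strongest sites within 1 kb of an annotated start took in starts of noncoding genes, and are given here by the nearest gene of the table. NFKB2 had 9.28 at its own start, a site in TNFAIP2, a gene named for its induction by TNF, 8.77 at 1.9 kb from its coding start, and a site 3.9 kb upstream of ZFP36, whose product destabilizes cytokine mRNAs, 8.72. A site in NAB1, a corepressor of EGR factors, had 8.67 at 2.2 kb from its coding start, and NFKBIA, the gene of IκBα, 8.38. GR after budesonide had 9.47 at NFKBIA, the highest GR value of the 10, and 3.06 at NFKB2 and 3.70 at ZFP36. REPIN1 (8.28), a site 22.5 kb upstream of BCL3 (7.96, with 5.91 for GR after budesonide), CTSS, for cathepsin S (7.92), and SLC9A8, a sodium-proton exchanger (7.86), followed. The remaining 1 of the 10, near ROCK1P1 (8.47), was even, with 8.89 for GR after budesonide.

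Genes known as NF-κB targets had strong RELA sites more often than protein-coding genes at large. In 11 lists of such genes, 47 of 81 members (58.0%) had a site of the strongest 10% in the gene or within 50 kb. The same held for 1590 of 20033 protein-coding genes (7.94%). Among members with any site, 73 in number, the strongest site had a median of 6.63, beside 4.90 over the 8222 protein-coding genes with a site. Neighbours share sites, so these were 67 different sites, 42 of them in the strongest 10%. At 47 of the 73 genes the strongest site held a full κB match. It lay within 1 kb of the gene's own start at 18 genes, where 16 had a full match and the median was 7.27, and farther away at 55, where 31 had one and the median was 6.39. Over the whole list, 9133 of 11571 sites held no full match in the 400 bp, and 42.7% of the strongest 10% held one. No such share was taken for the strongest sites of all protein-coding genes.

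**Figure D4:**
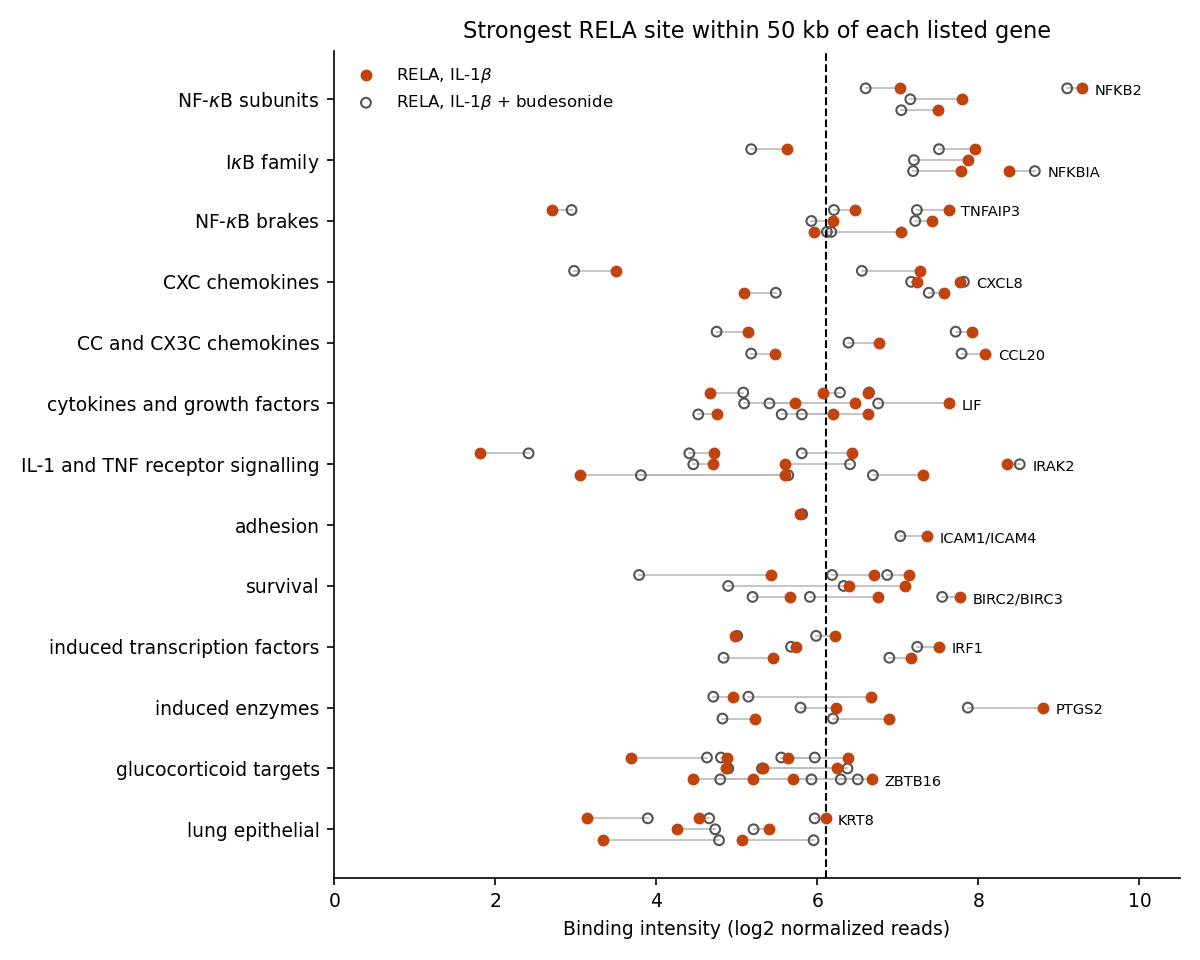
Strongest site within 50 kb of each listed gene, by list, as binding intensity in log2 normalized reads for RELA with IL-1β (filled) and RELA with IL-1β and budesonide (open, joined to the same site); the dashed line marks 6.10, where the strongest 10% begins, and the highest gene of each list is named. NFKB2 leads at 9.28, and of the lung epithelial genes only KRT8, at 6.10, reaches the line.

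The genes of the NF-κB subunits and of their inhibitors were among the strongest. Of the 5 subunit genes, 4 had a site of the strongest 10%, and it lay within 1 kb of the start at NFKB2 (9.28), NFKB1 (7.80), REL (7.49) and RELB (7.03), each with a full κB match. RELA itself had no site within 50 kb. At the NFKB1 site GR after budesonide had 0.01, close to the lowest value of the scale.

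In the IκB family, NFKBIA had 8.38, BCL3 7.96, NFKBIZ 7.87 and NFKBIB 7.78, all in the strongest 10%. NFKBIE, for IκBε, had 5.62. Around BCL3, a nuclear IκB protein, 6 strong sites lay within 28.6 kb, the most of any group of strong sites no more than 20 kb apart, and 5 of the 6 held a κB element. NFKBIA had 9 sites, of which 4 were in the strongest 10%: the one at its start and others 29.0, 30.2 and 48.4 kb downstream, with 7.02, 6.72 and 6.77.

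The brakes of the pathway were less uniform. TNFAIP3, the ubiquitin-editing enzyme A20, had 7.63 at 46 bp upstream of its start with 3 κB matches, and 6.64 inside the gene. TNIP1, its partner, had 9 sites of which 5 were strong, the highest at 7.42. ZC3H12A, an RNase for cytokine mRNAs, had 7.04, CYLD, a deubiquitinase, 6.47 and ZC3H12C 6.20. TRAF3 lay below at 5.96, TRAF1 at 2.71, and TNIP3 had no site.

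Among chemokines, 9 of 14 genes had a strong site. CCL20, which draws CCR6-bearing cells, had the highest, 8.08 at 8.0 kb downstream of its start, and a further 7.46 at 9.3 kb upstream. CCL2, for monocytes, had 7.92 at 2.6 kb upstream. In the cluster of neutrophil chemokines on chromosome 4, CXCL8 had 7.77 at 42 bp upstream of its start, with 6.75 and 6.71 farther upstream. CXCL1 had 7.23 at 75 bp upstream, and CXCL6 shares that site.

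The other chemokine genes of the lists are given by value. CXCL10 had 5.09 at 126 bp upstream of its start, a site it shares with CXCL11, although that site holds a full κB match. CCL5 had 5.48, CCL28 5.14 and CXCL16 3.49. CX3CL1 had 6.77.

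Cytokine genes ranged widely. LIF, of the IL-6 family, had 12 sites, 4 of them strong and all of these 34.1 to 50.2 kb downstream, with 7.63 as the highest. CSF1 (6.63), IL32 (6.63), IL23A (6.47) and the site shared by IL1A and IL1B (6.19) were also in the strongest 10%. IL6 had a single site at 4.75, 7.7 kb upstream, TNF had 5.72, CSF2 6.07 and CSF3 4.67. IL11 had no site.

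In receptor signalling, IRAK2, a kinase of the IL-1 receptor complex, had 9 sites, with 8.35 in an intron 27.4 kb from its start. MAP3K8, a kinase that feeds the MAP kinases, had 7.31 at 19 bp upstream of its start, and TNFSF15 had 6.43. IRAK3, TLR2, RIPK2, TNFRSF9 and TNFSF10 lay between 3.05 and 5.60. IL1R1, the receptor of IL-1 itself, had 1.81 beside 6.07 for GR with budesonide, and CD40 had no site.

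Of the survival genes, 7 of 9 had a strong site: the site at the BIRC3 start (7.77), which lies 29.8 kb upstream of BIRC2 and counts for both, SOD2 (7.13), BCL2A1 (7.08), GADD45B (6.75), CFLAR (6.70) and IER3 (6.39). The site nearest the BIRC2 start, 1.12 kb upstream, had 5.79. BCL2L1 had 5.66 at an even site and XIAP 5.42. ICAM1, an adhesion molecule for leukocytes, had 7.36 and 7.34 at 1.3 kb and 155 bp upstream of its start. VCAM1 and SELE, adhesion molecules of activated endothelium, had no site.

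Of the induced transcription factors, IRF1 had 7.52, JUNB 7.16 and CEBPB 6.21, while CEBPD (5.73), KLF6 (5.45) and IRF2 (4.98) were below the strongest 10% and ATF3 had no site. Among induced enzymes, PTGS2, the inducible cyclooxygenase, had 8.80 at 35.1 kb upstream of its start, the highest of its list, with 6.69 at 28.0 kb upstream and 6.28 at the start. The site at 8.80 matched at most 7 of the 9 κB positions and had 6.51 for GR with budesonide. PLAU (6.89), PTGES (6.67) and NOS2 (6.23) were strong, NAMPT (4.96) was not, and MMP9 had no site.

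Strong RELA sites were also counted at genes outside the NF-κB lists, beside the 7.94% of all protein-coding genes. Of 11 glucocorticoid targets, 3 had one (27.3%; ZBTB16 6.68, DUSP1 6.37 and ERRFI1 6.25), although all 11 had a site, and the median of their strongest sites was 5.32. Of the 8222 protein-coding genes with any site, 1590 had a strong one. The ZBTB16 site lay 236 kb from the ZBTB16 start, in an intron of NNMT. Of 10 lung epithelial genes, KRT8 alone had one (10.0%), at 6.10 and at an even site. The 3 loci that served as negative controls in ChIP-qPCR, MYOD1, MYOG and OLIG3, had no site within 50 kb.

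The strongest sites of RELA with IL-1β and of GR with budesonide overlapped in part. Of the strongest 10% by RELA, 179 (15.5%, 13.5 to 17.7) were also in the strongest 10% by GR. The share over all sites is 10% by definition. However, 127 of these 179 sites were even. With even sites left out, the share of strong RELA sites also strong by GR was 5.45% (4.24 to 6.98). But even sites are defined by close RELA and GR values, so leaving them out takes away sites that are strong for both. Nothing is read from the lower share. In the strongest 10% that were not even, the median GR intensity was 3.33 with budesonide and 4.97 with both agents. The 2 antibodies share no scale, so the intensities are set side by side only.

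**Figure D5:**
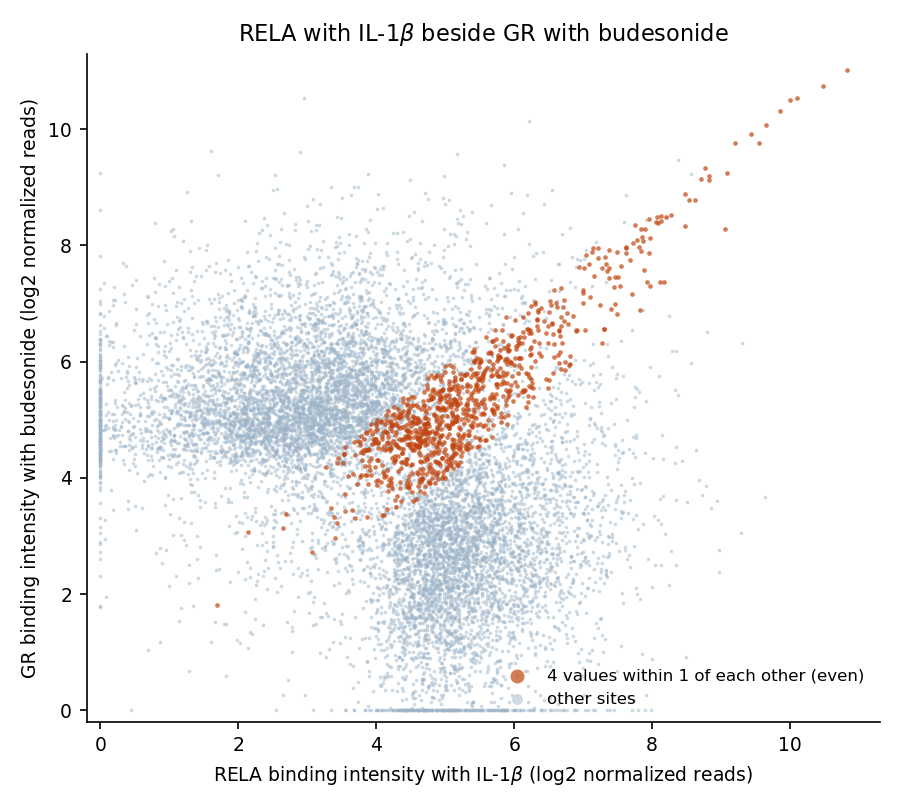
RELA intensity with IL-1β against GR intensity with budesonide, both in log2 normalized reads, 1 point per site, with even sites in a separate colour. Other sites lie on either side of the even sites, which follows in part from the definition of even sites and from a list that pools both factors, and even sites run up the diagonal to 10.82 for RELA and 11.01 for GR.

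RELA with IL-1β alone and RELA with both agents named largely the same strong sites: 829 of 1157 (71.7%, 69.0 to 74.2) were in the strongest 10% of both. The difference, IL-1β alone minus both agents, had a median of -0.07 (-0.09 to -0.05) over all sites. In the strongest 10% it was 0.40 (0.37 to 0.42), with IL-1β alone higher at 85.7% of sites, and in the weakest 50% it was -0.75 (-0.78 to -0.72). The strongest 10% and weakest 50% were chosen by the intensity with IL-1β alone, so nothing is read from these 2 medians.

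At the strongest site of each NF-κB target gene, which was likewise picked by its intensity with IL-1β alone, RELA was higher with IL-1β alone at 53 of the 67 different sites and higher with both agents at 14. The median difference was 0.33, against -0.07 over all sites, and nothing is read from it, for the same reason. The examples were chosen after their values were seen. PTGS2 had 8.80 with IL-1β alone and 7.87 with both agents, PTGES 6.67 and 5.14, and IER3 6.39 and 4.89. NFKBIA had 8.38 and 8.70, IRAK2 8.35 and 8.51, CXCL8 7.77 and 7.82, and IRAK3 5.60 and 6.41. As no values per library were given, none of these differences could be tested.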

How the data were processed

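RELA and GR ChIP-seq libraries of A549 cells were paired-end and were mapped by the authors to GRCh38 with bowtie2 2.4.4. The submitters' processing notes also name FastQC 0.10.1, MACS2 2.2.7.1 and DiffBind 3.2, without their roles. The deposited table gives, for 11571 sites, the authors' binding intensity, the nearest gene and its distance. The intensity is on a log2 scale: among the 100 lowest values, 2500 of 4950 differences repeated exactly as powers of 2 and none as powers of 10. It is the authors' value over libraries, with no SD or n. The table also holds the authors' log2 fold over NS, FDR and labels made from them. These are comparisons of their own and were not used, nor was any value of NS derived from them.

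Sites were placed on GENCODE 44 and searched for 5 elements in the GRCh38 sequence with Python 3.11.15, pandas 2.3.3 and NumPy 2.4.6. Matches less than 10 bp apart were counted as 1 in counts per site. A site belonged to a gene when it overlapped the gene or 50 kb on either side. Shares have Wilson intervals and medians order-statistic intervals, both at 95% and for counting only (SciPy 1.17.1). The element search was tested on simulated sequence. Figures used Matplotlib 3.10.9.

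Named were the 20 sites of highest RELA intensity, the 10 highest within 1 kb of a gene start, and the strongest site of each list member, of which 1 gene is not reported here by name. Sites and genes outside this rule were chosen after their values were seen. The lists and groups were chosen with earlier results of these data known. The alternatives tried were other distances, windows, matches and percentiles, and leaving out sites at 0.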

Additional observations from a re-analysis of the deposited data

How the results depend on the processing

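No paired analysis was possible because the table gives no values per library; for the same reason no replicate could be left out. Of 29 alternatives over 6 results, 19 stayed within the 95% interval of the value reported or, for the count of genes, within 1.5 times of it. Leaving out sites at 0 gave a median RELA intensity of 4.31. The share of the strongest 10% with a κB element was 74.8% with 8 of 9 positions (31.0% in the weakest 50%) and 42.7% with 200 bp on either side. The difference in median between sites near starts and other sites was 0.79, and became 0.59 within 2.5 kb and 1.15 for protein-coding starts. Leaving out even sites or sites of GGAAT repeats was chosen after seeing the data. Without even sites the median RELA intensity was 4.07, the κB share 45.4%, the share also in the strongest 10% by GR 5.45% (the definition of even sites lowers it), and the median difference of IL-1β alone minus both agents -0.13. Without GGAAT repeats the share also strong by GR was 12.5%. The count of NF-κB targets with a strong site lay between 36 and 49 of 81 in all 6 alternatives. The share of all protein-coding genes moved with the setting. It was 3.82% at 10 kb, beside 45.7% of the targets, and 12.7% at 100 kb, beside 60.5%. Depth is unknown, so how far weak sites can be told from background is unknown too.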

Other observations

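Strong RELA sites were mostly single. The 984 sites of the strongest 10% that were not even fell into 848 groups when sites no more than 20 kb apart were joined, and 754 of these groups were a single site. In 26 groups there were 3 sites or more, and in 3 groups 5 or more, at BCL3 (6 sites), at GRAMD1A (5 sites) and at TNIP1 (5 sites). GRAMD1A encodes a sterol transfer protein, and its group ran from 6.12 to 7.68 over 38.7 kb with a κB element at 3 of the 5 sites.

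Groups without the element were seen as well. The 4 sites beyond LIF on chromosome 22 ran from 6.44 to 7.63 over 16.5 kb and held no full match in their 400 bp, nor did the 4 sites at CCDC200, which ran from 6.81 to 7.18 with a median of 7.85 for GR with budesonide. At NANOS3 and TNFAIP2 the median for GR with budesonide was 2.14 and 3.87, and all 4 sites at NANOS3 held a κB element. These groups were chosen after their values were seen.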
